A study of Callithrix jacchus with 20 samples.

Results

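FOXA1, FOXA2, FOXA3, HNF4A, GATA4, GATA6, TTR and AFP are genes of the endoderm, and their transcripts were followed through the differentiation of marmoset induced pluripotent stem cells (cjiPSCs) towards primordial germ cell-like cells (cjPGCLCs). The 8 genes were taken by symbol from a table of 25102 genes, and all 8 had a row in the raw and in the normalised counts. RNA-seq had been performed on 20 libraries of 10 conditions, with 2 biological replicates in each. All libraries came from DPZ_cjiPSC2, which the study names DPZ_cjiPSC#2, so the spread between replicates holds no difference between animals or lines.

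The cjiPSCs were kept in TESR medium or in cjPSCM, a medium made for marmoset pluripotent stem cells. From each culture, precursors of mesendoderm (pre-ME) were induced with the GSK3 inhibitor CHIR, either with Activin A (+ActA) or without it (-ActA). Embryoid bodies were then grown with BMP4, LIF, SCF and EGF, and by their treatment labels the sorted cells sequenced here came from cjPSCM cultures. The titles of these 8 libraries instead name the medium cjEPSCM, so comparisons of sorted cells with pre-ME of cjPSCM cultures rest on the treatment label. At day 4 the embryoid bodies were sorted by FACS into double-positive cells, called cjPGCLCs, and double-negative cells, called somatic cells. The study's methods name INTα6 and CXCR4 as the sort markers. The sample titles instead pair INTα6 with EpCAM, and the sample characteristics pair CXCR4 with EpCAM, so the exact gate is uncertain.

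FOXA1, FOXA2 and FOXA3 are forkhead factors that open chromatin at endodermal genes, and FOXA2 marks definitive endoderm, the node and the floor plate. HNF4A, a nuclear receptor, drives the gene programme of liver, gut and visceral endoderm. GATA4 and GATA6 are zinc finger factors of extraembryonic and definitive endoderm, and they also act in heart and lateral mesoderm and, in primates, in amnion. TTR, the thyroxine carrier transthyretin, and AFP, alpha-fetoprotein, are secreted products of visceral endoderm, yolk sac and foetal liver.

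Between 4784964 and 22067099 reads were counted on genes per library, with a median of 11599813. A floor of 3 counts corresponded to 1.40 to 6.92 normalised counts, which are counts divided by a size factor of the library, and such floors and the intervals given here cover counting error only. Differences were tested with edgeR over 15797 genes, and a gene was called where the adjusted p was under 0.05 and the log2 difference exceeded 2. FOXA2, FOXA3, HNF4A, GATA4 and GATA6 passed the filter on low counts, whereas FOXA1, TTR and AFP did not and had no test. FOXA2 passed only through the 4 cjPGCLC libraries, so its entry into the test was itself tied to its high level there. HNF4A passed through these and 3 cjiPSC libraries, so its entry did not rest on cjPGCLCs alone. Levels are comparable between libraries of a gene but not between genes, since transcript length was not taken into account. In RefSeq's marmoset table, which is of another build than the genome used for mapping, FOXA1 overlapped 1 other gene, GATA4 1, GATA6 2 and HNF4A 2. Because the strand setting of the counting is not given in the sources used here, reads of such neighbours cannot be told apart from those of these genes.

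FOXA2 transcripts lay almost completely in cjPGCLCs. In cjPGCLCs from pre-ME -ActA the normalised counts were 518 and 356, and in cjPGCLCs from pre-ME +ActA they were 192 and 83.9. The 16 other libraries held at most 7.93 normalised counts, and both libraries of somatic cells from pre-ME +ActA had 0 counts. All 4 cjPGCLC libraries were therefore above every library of the other conditions, and together they carried 95.6% of all normalised FOXA2 counts. Against somatic cells, FOXA2 was at least 62.4-fold higher in cjPGCLCs +ActA (edgeR adjusted p = 6.48e-05). In the -ActA arm 908 counts stood against 2, a ratio of 251 with an exact 95% counting interval of 69.4 to 2078 (edgeR adjusted p = 3.26e-06). FOXA2 entered these tests only through the cjPGCLC libraries, so both p-values are tied to its high level there. In bulk samples such as these, fewer cells of a type and less RNA per cell cannot be told apart.

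HNF4A showed the same concentration in sorted double-positive cells. CjPGCLCs -ActA had 835 and 446 normalised counts and cjPGCLCs +ActA 418 and 131. Somatic cells had 9.22 and 1.55 in the -ActA arm, and 8.85 and 5.96 in the +ActA arm. No cjPGCLC library overlapped a somatic one. HNF4A was higher in cjPGCLCs by 7.09 ± 0.79 on the log2 scale -ActA (SE, adjusted p = 1.84e-05) and by 5.24 ± 0.73 +ActA (SE, adjusted p = 0.000377). Of the normalised HNF4A counts, 95.4% fell in the 4 cjPGCLC libraries.

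FOXA3 and FOXA1 were also measured in the sorted fractions, FOXA1 at few counts. FOXA3 was detected in every library, with 113 and 64.6 normalised counts in cjPGCLCs -ActA, 58.3 and 27.0 in cjPGCLCs +ActA, 13.8 and 10.8 in somatic cells -ActA and 15.9 and 20.9 in somatic cells +ActA. The cjPGCLC libraries were the higher ones in both arms, without overlap. The log2 difference was 2.91 ± 0.71 -ActA (SE, adjusted p = 0.0140) and 1.25 ± 0.67 +ActA (SE, adjusted p = 0.412). The -ActA call was lost when somatic replicate 1, somatic replicate 2 or cjPGCLC replicate 1 of that arm was left out, with log2 differences of 3.07, 2.72 and 2.41. FOXA1 had 22 and 4 counts in cjPGCLCs -ActA and none in somatic cells -ActA, a difference of at least 4.80-fold. In the +ActA arm 5 and 0 counts in cjPGCLCs stood against 0 and 1 in somatic cells, which was not a detectable difference at this depth.

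**Figure D1:**
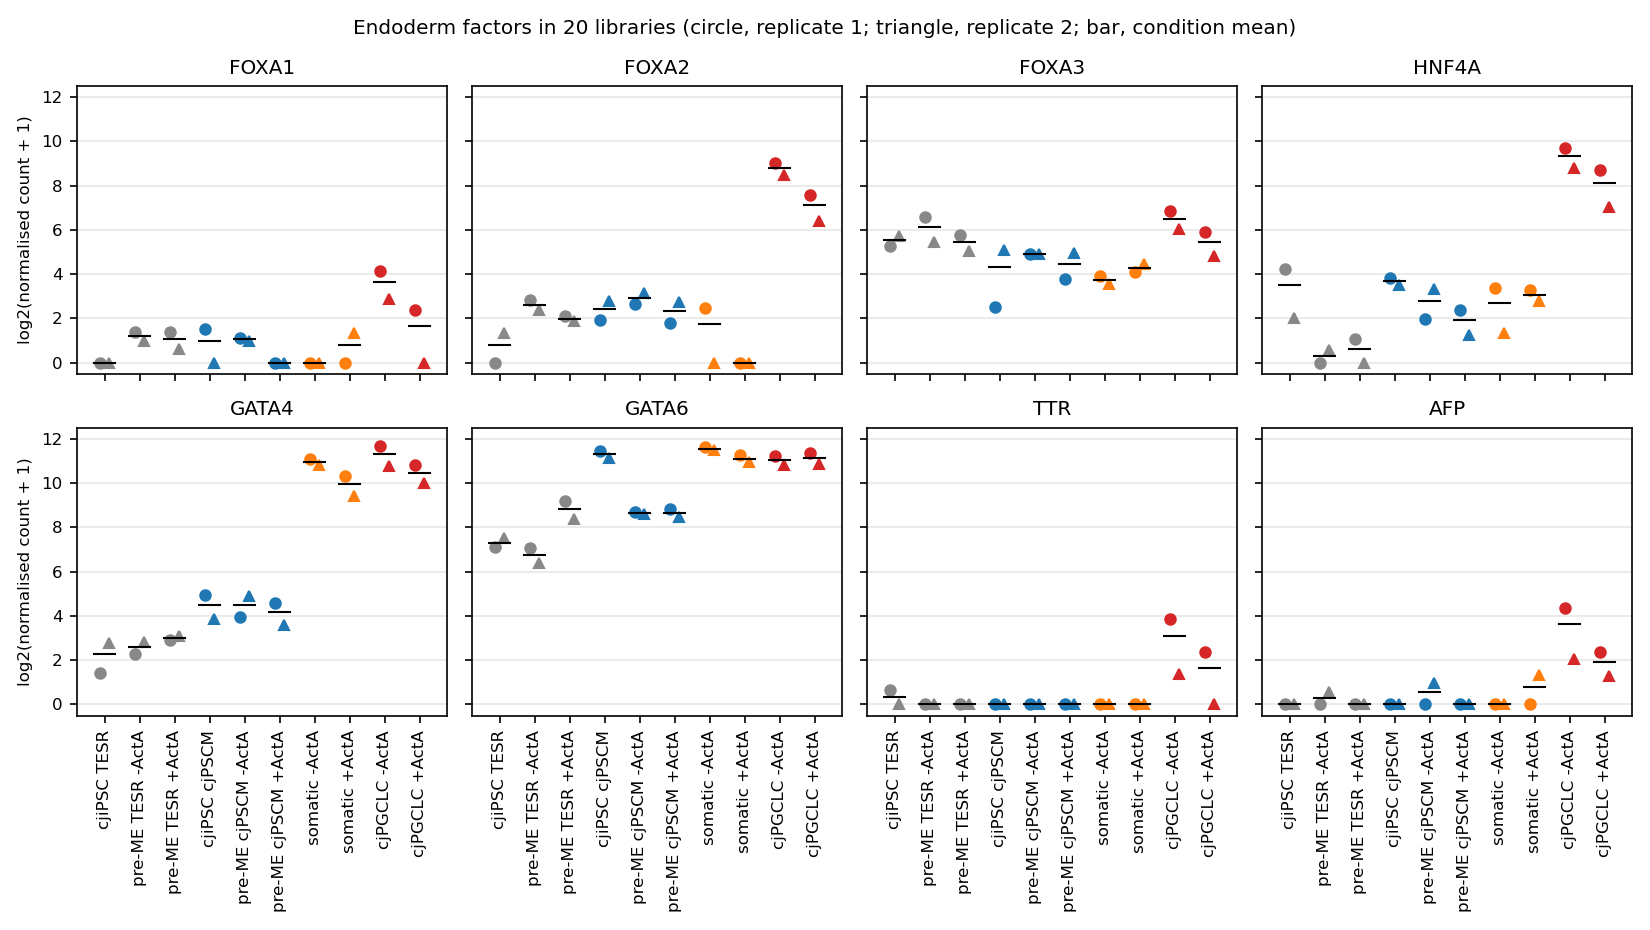
Level of each of the 8 genes in the 20 libraries as log2(normalised count + 1), with a circle for replicate 1, a triangle for replicate 2 and a bar at the condition mean. FOXA2 and HNF4A stand out in the cjPGCLC libraries, and GATA4 and GATA6 are high in all 8 sorted libraries. FOXA1, TTR and AFP stay near the floor except in replicate 1 of cjPGCLCs -ActA.

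TTR and AFP, the secreted products, were present in traces in cjPGCLCs. TTR had 18 and 1 counts in cjPGCLCs -ActA and 5 and 0 in cjPGCLCs +ActA, and 1 read was found among the 16 other libraries. AFP had 26 and 2 counts in cjPGCLCs -ActA and 5 and 1 in cjPGCLCs +ActA, and the other libraries had 0 or 1. Against somatic cells -ActA, where both genes had 0 counts, TTR was at least 3.51-fold and AFP at least 5.17-fold higher in cjPGCLCs. Both values rested mainly on replicate 1, in which the normalised count was 8.67 times that of replicate 2 for TTR and 6.26 times for AFP.

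Of the 8 genes, FOXA2 and HNF4A were called higher in cjPGCLCs than in somatic cells +ActA, where 1.41% of all tested genes were called higher. In the -ActA arm FOXA2, HNF4A and FOXA3 were called, against 2.39% of all tested genes. FOXA2 passed the filter on low counts only through cjPGCLC libraries. Its calls in both arms were thus tied to its entry into the test, and the shares are no like-for-like background for it. HNF4A passed through cjPGCLC and cjiPSC libraries, so its entry did not rest on cjPGCLCs alone. No gene of the 8 was called for a difference of the sorting effect between the arms by edgeR or by DESeq2, and none had an unadjusted p under 0.05 for it, while 0.0633% of all tested genes were called.

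GATA4 and GATA6 were high on both sides of the sort. GATA4 had 3322 and 1743 normalised counts in cjPGCLCs -ActA against 2161 and 1813 in somatic cells -ActA, and 1824 and 1025 in cjPGCLCs +ActA against 1294 and 690.2 in somatic cells +ActA. These ranges overlapped in both arms, and the log2 differences of 0.37 ± 0.34 -ActA (SE, adjusted p = 0.608) and 0.54 ± 0.34 +ActA (SE, adjusted p = 0.519) were not called. GATA6 had 2397 and 1792 normalised counts in cjPGCLCs -ActA and 3139 and 2865 in somatic cells -ActA. In the +ActA arm GATA6 had 2678 and 1873 in cjPGCLCs and 2474 and 1966 in somatic cells. GATA6 differed by -0.50 ± 0.26 on the log2 scale -ActA (SE, adjusted p = 0.289) and by 0.05 ± 0.26 +ActA (SE, adjusted p = 0.968). The replicates of GATA6 overlapped only in the +ActA arm.

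Other endodermal genes were compared between the same fractions. In a list of 10 definitive endoderm genes, 8 were tested and 3 were called higher in cjPGCLCs in each arm. They were SOX17, a factor of endoderm and of primate germ cells, CXCR4, which the study's methods and the sample characteristics name as a sort marker, so that its difference may be set by the gate, and OTX2, a factor of anterior neural and endodermal tissue. SOX17 rose by 4.63 ± 0.53 (SE) and OTX2 by 3.13 ± 0.53 (SE) on the log2 scale -ActA. The median log2 difference of the tested genes was 0.83 -ActA and 1.12 +ActA, beside 0.00 and 0.01 over all tested genes.

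Of 12 tested extraembryonic endoderm genes, 3 were called higher -ActA and 2 +ActA. Among them, APOA1, the main protein of high-density lipoprotein, was higher by 3.18 -ActA and 2.15 +ActA, and NID2, a basement membrane protein, by 2.53 -ActA. The median log2 difference of this list was 0.28 -ActA and 0.40 +ActA.

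In a list of 12 liver and gut genes, 4 were tested. GC, the vitamin D binding protein, had 345 counts in cjPGCLCs -ActA and none in somatic cells, a difference of at least 63.7-fold. SERPINA1, the alpha-1 antitrypsin gene, was at least 10.7-fold higher +ActA and had a ratio of 16.6 (95% counting interval 5.50 to 82.0) -ActA. Most counts of GC and SERPINA1 in cjPGCLCs -ActA lay in replicate 1. HNF4G, a relative of HNF4A, was the third called -ActA, with a ratio of 11.3 (95% counting interval 3.67 to 56.1), whereas only GC and SERPINA1 were called +ActA. PROX1, the other tested gene, was called in neither arm, with means +ActA of 290 normalised counts in cjPGCLCs and 390 in somatic cells. The median log2 difference was 3.57 -ActA and 3.84 +ActA, and the latter was 2.32 with SERPINA1 at its bound. Summed over the list, cjPGCLCs had 498 to 658 normalised counts -ActA and 341 to 479 +ActA. Somatic cells had 291 to 306 -ActA and 386 to 414 +ActA, so the fractions overlapped +ActA. PDX1, AFM and FGA were at 0 in all cjPGCLC libraries, and ONECUT1 was at 0 in cjPGCLCs -ActA.

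Germ cell genes were higher in the same libraries. Of SOX17, TFAP2C, PRDM1, NANOS3 and DPPA3, all but PRDM1 were called higher in cjPGCLCs in both arms. Their summed level was 2594 to 2648 normalised counts in cjPGCLCs -ActA, 1340 to 1391 in cjPGCLCs +ActA, 168 to 234 in somatic cells -ActA and 267 to 340 in somatic cells +ActA. SOX17, with means of 2124 normalised counts in cjPGCLCs -ActA and 973 in cjPGCLCs +ActA, made up most of the sums in cjPGCLCs and belongs to the definitive endoderm list too. Whether the same cells carried germ cell and endodermal transcripts was not tested in these bulk libraries. By immunofluorescence of embryoid body sections, the study saw FOXA2 protein in few cells, which were single-positive for SOX17. That staining was of protein, by its legend at a later day, and not of the sorted cells sequenced here. Of 8 tested amnion genes, TFAP2B was the 1 called in each arm, and the median log2 difference of that list was 0.94 -ActA and 0.61 +ActA.

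**Figure D2:**
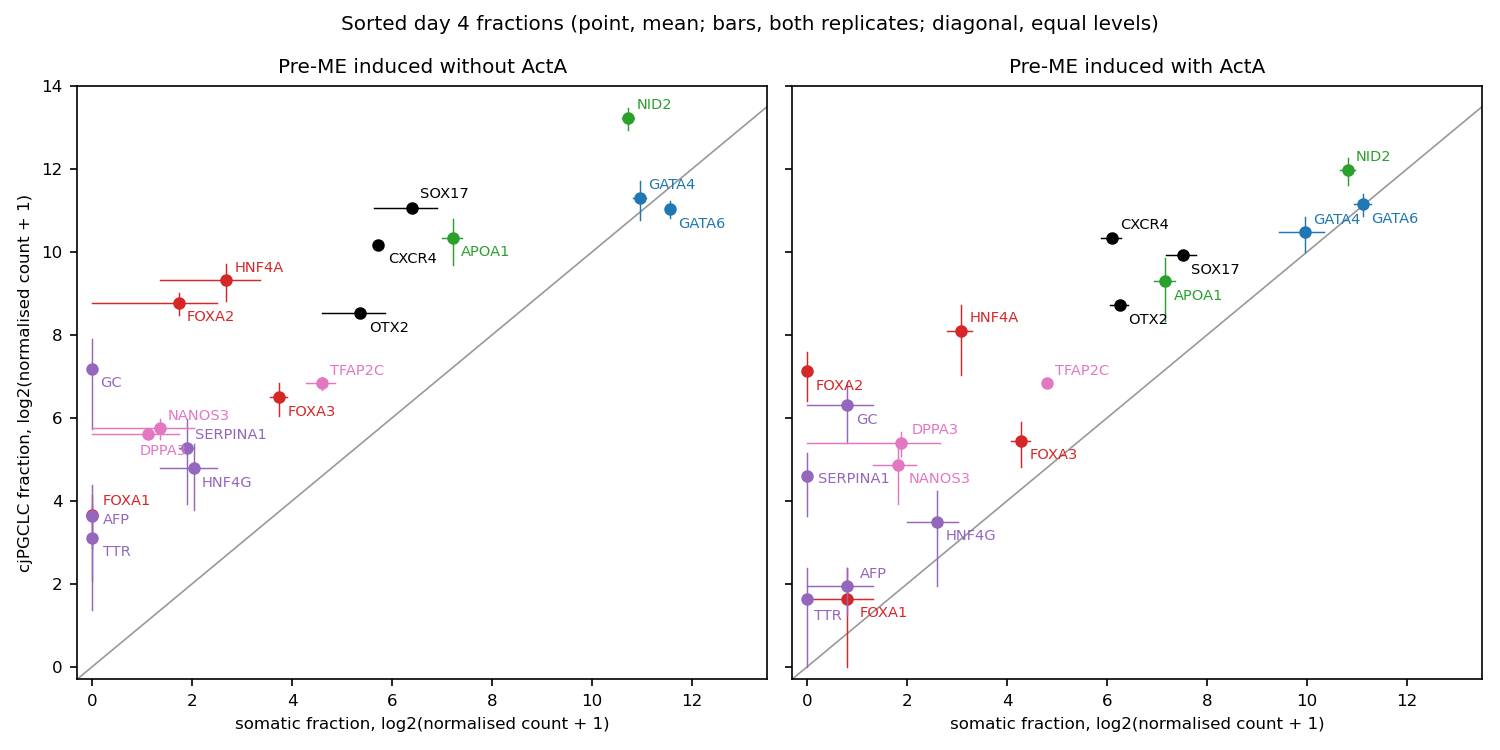
Mean log2(normalised count + 1) in somatic cells (x axis) and in cjPGCLCs (y axis) for pre-ME -ActA (left) and +ActA (right), with bars that span both replicates and a diagonal of equal levels. Red marks FOX factors and HNF4A, blue GATA4 and GATA6, black definitive endoderm genes, green extraembryonic endoderm genes, purple liver and gut products with TTR, AFP and HNF4G, and pink germ cell genes. FOXA2, HNF4A and GC lie far above the diagonal, while GATA4 and GATA6 lie close to it.

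The ActA step left smaller differences within the cjPGCLCs. FOXA2 was lower in cjPGCLCs from pre-ME +ActA than from pre-ME -ActA by -1.65 ± 0.38 on the log2 scale (SE, adjusted p = 0.0295), which passed the adjusted p but not the fold threshold. Without cjPGCLC +ActA replicate 1 the difference was -2.39 and passed both. HNF4A differed by -1.21 ± 0.47 (SE, adjusted p = 0.224), FOXA3 by -1.04 ± 0.55 (SE, adjusted p = 0.455) and GATA4 by -0.83 ± 0.34 (SE, adjusted p = 0.258). By edgeR none of the 8 genes was called, 3 had an unadjusted p under 0.05 and DESeq2 also called none, beside 0.380% of all tested genes. In somatic cells GATA4 had a mean of 992 ± 427 normalised counts +ActA and 1987 ± 246 -ActA (SD, n = 2 each), and the replicates did not overlap, with an edgeR adjusted p of 0.904. None of the 8 was called there by edgeR or DESeq2, GATA4 was the 1 gene with an unadjusted p under 0.05, and 0.00633% of all tested genes were called.

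Replicate 1 had the higher normalised count of all 8 genes in both groups of cjPGCLCs. The ratio of replicate 1 to replicate 2 was 3.19 for HNF4A, 2.29 for FOXA2 and 1.43 for GATA6 in cjPGCLCs +ActA, and 1.87, 1.45 and 1.34 in cjPGCLCs -ActA. The summed germ cell level, mostly SOX17, differed little between the same replicates, as given above. That of the definitive endoderm list, which shares SOX17, also differed little, with 3735 to 3844 normalised counts -ActA and 2809 to 2883 +ActA. The sums differed more for extraembryonic endoderm, with 21610 to 29074 -ActA and 14786 to 19386 +ActA. For liver and gut genes they were 498 to 658 -ActA and 341 to 479 +ActA.

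GATA4 rose between pre-ME and day 4. It had 14.7 and 28.7 normalised counts in pre-ME -ActA of the cjPSCM cultures and 23.4 and 11.2 in pre-ME +ActA, and every sorted library had at least 690.2. GATA4 rose by 6.94 ± 0.48 on the log2 scale in cjPGCLCs -ActA (SE, adjusted p = 1.67e-08) and by 6.26 ± 0.49 in cjPGCLCs +ActA (SE, adjusted p = 8.06e-08). The increase in somatic cells was 6.56 ± 0.47 -ActA (SE, adjusted p = 2.48e-08) and 5.72 ± 0.49 +ActA (SE, adjusted p = 1.86e-07). Sorted libraries held 98.9% of the normalised GATA4 counts.

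GATA6 rose over the same interval from a higher start. Pre-ME of the cjPSCM cultures had 421 and 388 normalised counts -ActA and 459 and 349.7 +ActA, and the sorted libraries had at least 1792. In cjPGCLCs GATA6 was higher than in pre-ME by 2.36 ± 0.27 -ActA (SE, adjusted p = 5.07e-06) and by 2.49 ± 0.28 +ActA (SE, adjusted p = 2.59e-06), and in somatic cells by 2.86 ± 0.28 (SE, adjusted p = 6.92e-07) and 2.44 ± 0.28 (SE, adjusted p = 3.13e-06). FOXA2 rose from pre-ME to cjPGCLCs by 6.07 ± 0.51 -ActA (SE, adjusted p = 2.89e-07) and 5.20 ± 0.59 +ActA (SE, adjusted p = 4.76e-06), and HNF4A by 6.88 ± 0.68 (SE, adjusted p = 9.96e-07) and 6.43 ± 0.78 (SE, adjusted p = 6.17e-06).

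FOXA2, HNF4A, GATA4 and GATA6 were thus the genes called higher in cjPGCLCs than in pre-ME in each arm, where 5.77% of all tested genes were called higher -ActA and 6.15% +ActA. For FOXA2, entry into the test was tied to the high level in cjPGCLCs, so these shares are no like-for-like background for it. In somatic cells GATA4 and GATA6 were called, against 4.99% -ActA and 5.29% +ActA. FOXA3 passed the adjusted p but not the fold in cjPGCLCs -ActA, with 1.64 on the log2 scale (adjusted p = 0.0273).

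**Figure D3:**
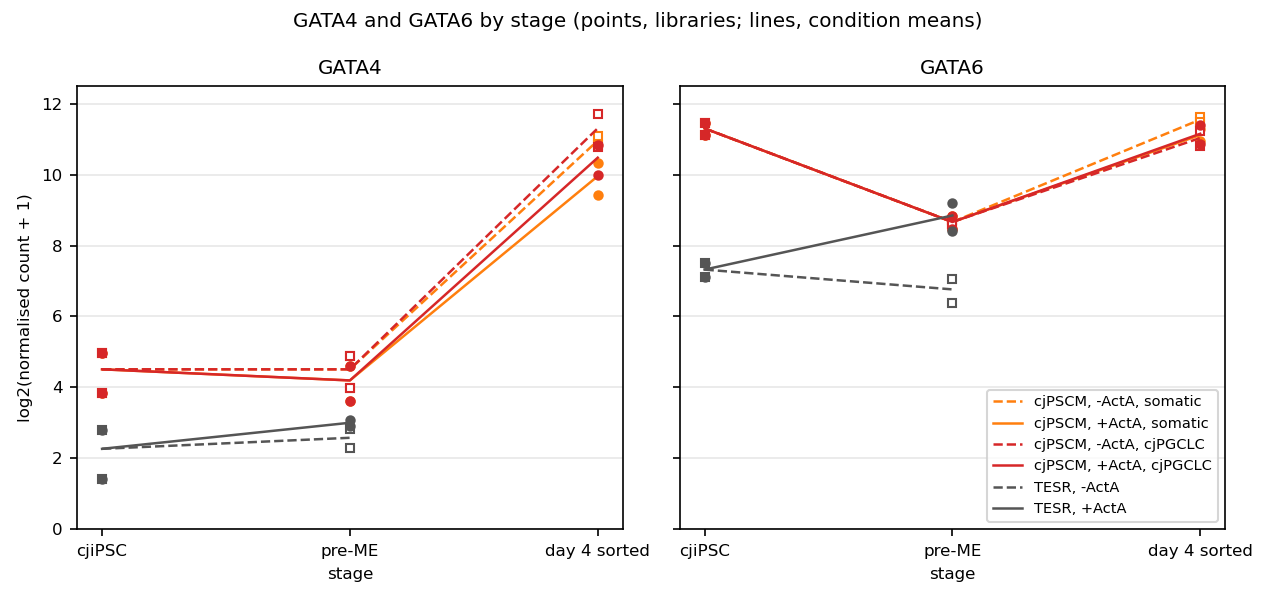
Level of GATA4 and GATA6 as log2(normalised count + 1) by stage, with a point for each library, lines through condition means, solid lines and filled circles for +ActA, broken lines and open squares for -ActA; cjiPSCs are drawn once for each path. GATA4 is low in cjiPSCs and pre-ME and high in all sorted cells, whereas GATA6 is high in cjiPSCs in cjPSCM, lower in pre-ME and high again at day 4.

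Relatives of GATA4 and GATA6 moved over the same step. Of 5 tested genes among the other GATA factors and their FOG cofactors, 4 were called higher in cjPGCLCs -ActA than in pre-ME, 2 in cjPGCLCs +ActA, 3 in somatic cells -ActA and 2 in somatic cells +ActA. GATA5, a factor of heart and endoderm, and GATA3, a factor of trophoblast and amnion, were called in all 4 comparisons. The mean of GATA5 was 264 normalised counts in cjPGCLCs -ActA and 465 in somatic cells -ActA, against 0.295 in pre-ME -ActA. Between the sorted fractions GATA2 was called higher in cjPGCLCs -ActA, by 2.20 ± 0.22 (SE, adjusted p = 6.97e-06). The median log2 difference of this list from pre-ME was 3.07 in cjPGCLCs -ActA and 3.13 in somatic cells -ActA, beside 0.01 and 0.00 over all tested genes.

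Cardiac and lateral mesoderm genes, markers of another tissue in which GATA4 and GATA6 act, were present in both sorted fractions. HAND1, HAND2 and TBX20, factors of early heart and lateral mesoderm, were called higher than in pre-ME in both fractions and both arms. HAND2 was lower in cjPGCLCs than in somatic cells -ActA by -2.26 ± 0.41 (SE, adjusted p = 0.00154), as was TBX5, by -2.27 ± 0.44 (SE, adjusted p = 0.00277). These were the 2 of 8 tested genes of this list called between the fractions -ActA. The summed level of the 10 genes was 6734 to 9805 normalised counts in cjPGCLCs and 10586 to 14088 in somatic cells, and none was at 0. Amnion genes moved over the same step. Of 8 tested, 7 were called higher than in pre-ME in cjPGCLCs -ActA, 6 in cjPGCLCs +ActA, 3 in somatic cells -ActA and 5 in somatic cells +ActA, with median log2 differences of 3.25, 3.75, 1.76 and 3.18. VTCN1 and GABRP, genes used as markers of amnion, were called in all 4 comparisons. VTCN1 had means of 534 and 306 normalised counts in cjPGCLCs and somatic cells -ActA, against 1.29 in pre-ME -ActA. The summed level of the amnion list was 4695 to 10070.2 normalised counts in cjPGCLCs and 3018 to 6647 in somatic cells, and no measured gene of it was at 0. The part of cardiac, mesodermal or amnion cells in the GATA4 and GATA6 levels was not tested.

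GATA6 also separated the 2 media of the cjiPSCs. It had 2821 and 2232 normalised counts in cjPSCM against 136 and 182 in TESR medium, a log2 difference of 4.00 ± 0.30 (SE, adjusted p = 4.77e-08) with no overlap. GATA4 was higher in cjPSCM by 2.95 ± 0.94 (SE, adjusted p = 0.0211) at far lower counts, 32 and 9 against 3 and 4. The GATA4 call was lost without replicate 1 of either medium, with log2 differences of 1.95 and 2.14. These were the 2 of the 8 genes called higher in cjPSCM, beside 5.51% of all tested genes. The FOG cofactors ZFPM1 and ZFPM2 and GATA2 were higher in cjPSCM as well, by 2.30, 2.64 and 4.23 on the log2 scale. FOXA3 had 4.71 and 32.6 normalised counts in cjPSCM and 38.0 and 52.1 in TESR medium. The ratio of replicate 1 to replicate 2 in cjPSCM, 0.144, was the most unequal of this gene over the 10 conditions, and FOXA3 was called lower in cjPSCM when replicate 2 of that medium was left out.

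On induction of pre-ME, GATA6 fell in the cjPSCM cultures. The log2 difference from cjiPSCs was -2.61 ± 0.28 -ActA (SE, adjusted p = 4.85e-06) and -2.62 ± 0.28 +ActA (SE, adjusted p = 9.98e-06). It was the 1 gene of the 8 called in each comparison, where 3.16% and 1.64% of all tested genes were called lower. In the TESR cultures GATA6 was at 132 and 82.8 normalised counts in pre-ME -ActA and at 582 and 337 in pre-ME +ActA. Against cjiPSCs in TESR medium the +ActA level was higher by 1.57 ± 0.28 (SE, adjusted p = 0.000533), under the fold threshold, and the -ActA level differed by -0.53 ± 0.30 (SE, adjusted p = 0.173).

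The response of GATA6 to ActA therefore differed between pre-ME from the 2 media. A batch could not be told apart from the medium here, as described below. With ActA, GATA6 was higher by 2.10 ± 0.28 on the log2 scale in pre-ME from TESR cultures (SE, adjusted p = 0.000106), whereas pre-ME from cjPSCM cultures differed by -0.01 ± 0.27 (SE, adjusted p = 0.981). The difference of these effects was -2.11 ± 0.39 (SE, adjusted p = 0.0227), and 0.399% of all tested genes were called in this test of interaction. Leaving out any of 6 of the 8 pre-ME libraries took the adjusted p of the interaction over the threshold, while the difference stayed between -2.51 and -1.67. The TESR effect fell to 1.65 without the +ActA replicate 1 and to 1.80 without the -ActA replicate 2, under the fold threshold. GATA6 was the 1 of the 8 genes called for ActA in TESR cultures, beside 1.43% of all tested genes called higher. In cjPSCM cultures edgeR called none of the 8, none had an unadjusted p under 0.05 and DESeq2 also called none, beside 2.11% of all tested genes in either direction.

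**Figure D4:**
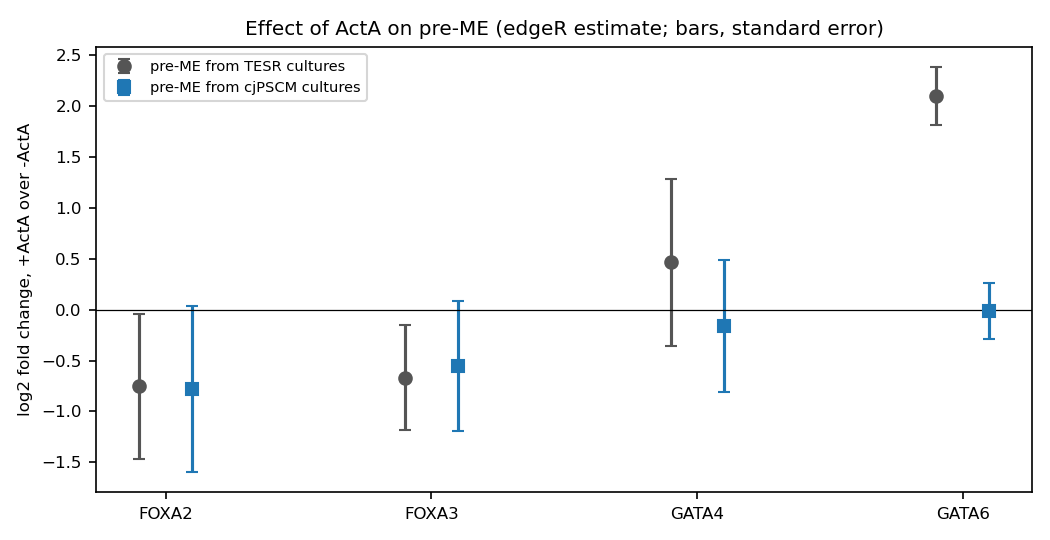
Log2 fold change of pre-ME +ActA over pre-ME -ActA for FOXA2, FOXA3, GATA4 and GATA6 by the culture medium of the cjiPSCs, as edgeR estimates with bars of 1 standard error. GATA6 is at 2.10 for TESR and -0.01 for cjPSCM, and the other genes were not called in either medium.

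Transcripts of genes that respond to NODAL and Activin were compared in the same pre-ME, while signalling itself was not measured. Of 4 tested NODAL and Activin targets, 3 were called higher with ActA in each medium, among them NODAL and SMAD7. SMAD7, an inhibitor induced by the pathway, rose by 2.38 ± 0.21 (SE) on the log2 scale from TESR cultures and by 2.54 ± 0.22 (SE) from cjPSCM cultures. The median log2 difference of this list was 3.70 and 4.22, beside 0.01 and -0.02 over all tested genes. Among definitive endoderm genes, MIXL1 and LHX1 were called higher with ActA from TESR cultures and EOMES from cjPSCM cultures. FOXA2 had 6 and 5 counts with ActA and 11 and 9 without it from TESR cultures, and 3 and 4 against 9 and 8 from cjPSCM cultures, and was called in neither.

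Pre-ME from the 2 media were also compared directly. The sample numbers of the TESR pre-ME libraries form a run apart from those of all others. These libraries had 18858625 to 22067099 reads on genes, against 8193936 to 17491325 in cjPSCM pre-ME. No label names a batch, and a batch could not be told apart from the medium here. The same limit holds for TESR pre-ME against cjiPSCs and for the difference in the ActA response between the media. Without ActA, GATA6 was higher in pre-ME from cjPSCM cultures by 1.92 ± 0.28 (SE, adjusted p = 0.000152), under the fold threshold, and GATA4 by 2.00 ± 0.71 (SE, adjusted p = 0.0729). By edgeR none of the 8 was called, 4 had an unadjusted p under 0.05 and DESeq2 called GATA4, beside 3.91% of all tested genes. With ActA, edgeR and DESeq2 called none, no gene had an unadjusted p under 0.05, and GATA6 differed by -0.19 ± 0.27 (SE, adjusted p = 0.621), beside 4.12% of all tested genes.

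HNF4A and FOXA2 were at low counts before day 4, with at most 32 for HNF4A and 11 for FOXA2 in a library. HNF4A had 32 and 2 counts in cjiPSCs in TESR medium, 0 and 1 in their pre-ME -ActA and 2 and 0 in their pre-ME +ActA. It was called lower in pre-ME, with a ratio of 54.1 (95% counting interval 9.08 to 2201) -ActA and of 25.4 (6.50 to 218) +ActA, beside 3.32% and 2.53% of all tested genes called lower. Both calls were lost without replicate 1 of the cjiPSCs, and the +ActA call also without pre-ME +ActA replicate 2. FOXA2 had 0 and 1 counts in cjiPSCs in TESR medium and 11 and 9 in their pre-ME -ActA, a ratio of 12.6 (95% counting interval 2.01 to 521, adjusted p = 0.0376), beside 4.54% of all tested genes called higher. This call was lost without replicate 1 of the cjiPSCs and without either pre-ME library. In cjPSCM cultures HNF4A had 14 and 7 counts in cjiPSCs and 1 to 9 in the 4 pre-ME libraries, and FOXA2 had 3 and 4 in cjiPSCs and 3 to 9 in pre-ME.

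Ordered by mean level, each gene had its own ladder over the 10 conditions. For FOXA2 and HNF4A, cjPGCLCs -ActA came before cjPGCLCs +ActA and both before all others, with no overlap between neighbours at these steps. Below them, neighbouring conditions overlapped for FOXA2 at every step, and for HNF4A at every step but that from pre-ME +ActA of cjPSCM cultures to pre-ME +ActA of TESR cultures. For GATA4 the order was cjPGCLCs -ActA, somatic cells -ActA, cjPGCLCs +ActA and somatic cells +ActA, each overlapping the next, followed by a gap to cjiPSCs in cjPSCM with a mean of 21.7 normalised counts. For GATA6 somatic cells -ActA led with a mean of 3002, without overlap with cjiPSCs in cjPSCM at 2527, which overlapped cjPGCLCs +ActA. For FOXA3 the conditions formed a continuous series from a mean of 88.9 in cjPGCLCs -ActA to 12.3 in somatic cells -ActA, and only the last 2 conditions, the somatic cells, did not overlap. FOXA1 separated cjPGCLCs -ActA from the next condition, whereas neighbours overlapped at every step for TTR and AFP.

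The genes whose condition means followed each factor most closely were read from Pearson's correlation of log2(normalised count + 1) over the 10 conditions, which share libraries and size factors, and are given as a description. For HNF4A they were ERBB3 (r = 0.973), RNF6 (r = 0.967) and APOA1 (r = 0.961). For FOXA2 they were SH3YL1 (r = 0.984), PTK6 (r = 0.972) and NRG2 (r = 0.968), of which PTK6 and NRG2 had only 103 and 75 counts in all libraries together. GATA4 was followed by FAM151A (r = 0.993), XRN1 (r = 0.985) and UFL1 (r = 0.985), GATA6 by GCNT1 (r = 0.968), DOCK9 (r = 0.957) and TBXAS1 (r = 0.956), and FOXA3 by HINT3 (r = 0.946), FGFR1 (r = 0.930) and SPINT2 (r = 0.926). Between the factors, r was 0.829 for FOXA2 with HNF4A and 0.834 for GATA4 with GATA6. The choice of genes depended on the measure. With a pseudocount of 10 in place of 1, none of the genes named for FOXA2 and HNF4A stayed among the closest 3, and only FGFR1 and GCNT1 stayed there with that pseudocount, with Spearman's correlation and over the 20 libraries.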

How the data were processed

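RNA-seq had been performed on 20 libraries of 10 conditions with 2 biological replicates each. The authors checked reads with FastQC 0.11.8, mapped them to calJac4 with STAR 2.7.0a and deposited HTSeq 0.11 read counts per gene. The annotation release and the strand setting are not given in the sources used here. The normalised counts deposited by the authors are a signal in which each count was divided by a DESeq2 size factor of its library, and levels were taken from these values. Reads assigned to no gene made up 10.6% to 23.2% per library and were left out, as were ambiguous reads.

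Raw counts were tested with the quasi-likelihood F-test of edgeR 4.0.16 in R 4.3.3, with TMM scaling, its filter on low counts (a minimum of 0.862 CPM) and 1 coefficient per condition over all 20 libraries. Adjusted p-values followed Benjamini and Hochberg over 15797 genes. A call required an adjusted p under 0.05 and a log2 difference above 2 in size, and an interaction by the adjusted p alone, in 17 comparisons and 2 interactions. A fold against a group with 0 counts was computed against a floor of 3 counts summed over the group, and with 1 to 3 counts as a ratio with an exact 95% counting interval.

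The 8 genes were named in every comparison. From each list up to 4 called genes with the largest fold change could be named, and for likeness the 3 genes with the highest correlation, without LOC names. The genes and the lists were chosen with earlier results of these data known. Alternatives were DESeq2 1.42.0, DESeq2 size factors in edgeR, other filters, the libraries of the comparison alone, a replicate block and each library left out. The test was tried on simulated data. Reads of PCR duplicates were not separated by molecular identifiers. No sequence was used and no coordinate is printed, because the gene table of RefSeq is of another build. Its coordinates served to find the genes that overlap the 8 genes. Some genes of the lists are counted but not reported here by name.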

Additional observations from a re-analysis of the deposited data

Results flagged for a closer look

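The effect of ActA on GATA6 differed between pre-ME from cjPSCM and from TESR cultures, by -2.11 on the log2 scale in the test of the interaction, which is what singled this result out. The libraries it rests on are given above, a batch could not be told apart from the medium, and the cause was not tested.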

How the results depend on the processing

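Counts of the 8 genes called were compared over 17 comparisons and 2 interactions. With the libraries of a comparison alone, 1 gene was called between the media, 0 in both TESR pre-ME comparisons with cjiPSCs and 1 (GATA4) between pre-ME -ActA of the 2 media. In that last comparison 1 gene was also called by DESeq2 (GATA4), without a filter on low counts (HNF4A) and with the replicate block (HNF4A). Without the filter, 5 genes were called between the fractions -ActA and 7 from pre-ME to cjPGCLCs -ActA, since AFP and FOXA1, and in the latter also TTR, were then tested. When 1 library was left out, the lone sample being assumed to vary like the other groups, counts ranged from 1 to 3 for the medium, 0 to 1 for ActA in TESR, 0 to 1 and 0 to 2 for TESR pre-ME +ActA and -ActA against cjiPSCs, 1 to 2 for cjPSCM pre-ME -ActA against cjiPSCs, 0 to 1 for pre-ME -ActA between media, 2 to 5 for the fractions -ActA, 0 to 1 for cjPGCLCs between arms, 4 to 7 for cjPGCLCs -ActA against pre-ME and 0 to 1 for the ActA interaction. The GATA6 effect of ActA in cjPSCM changed sign with DESeq2 size factors (0.0044) and DESeq2 (0.0018) and ranged from -0.24 to 0.17 with a library left out. GATA6 between the fractions +ActA ranged from -0.23 to 0.28, GATA4 -ActA from -0.18 to 0.75, and GATA6 in pre-ME +ActA between the media from -0.54 to 0.25. No label ties the replicate numbers to a shared batch, and with 2 pairs in a comparison they were not taken to pair the samples. Deviations of same-numbered samples correlated from -0.22 to 0.32, over 0.1 in 6 of 17 comparisons, including the 4 of ActA within a stage. The block changed the count of calls only as given, and a crossed pairing, added after seeing the data for 3 comparisons, changed none. Among all tested genes, interaction calls depended most on the setting, with 63 for ActA by medium rising to 2513 with the pre-ME libraries alone, 338 by DESeq2 and 735 without the filter, and 10 for the sort by ActA becoming 125, 92 and 269. Calls from cjiPSCs to pre-ME in cjPSCM fell from 483 to 107 +ActA and from 832 to 342 -ActA with the libraries of the comparison alone. The cause was not tested. Depth limits FOXA1, TTR and AFP, with 46, 25 and 37 counts in all.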
